A study of Mus musculus with 230 samples.

Results

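Intact dorsal root ganglion (DRG) sensory neurons of 12-month-old mice were compared with those of 1-month-old mice in low-input RNA libraries, each made from a small number of hand-picked neurons. The comparison used 6 libraries, 3 of each age, taken by their condition and age labels out of the 230 samples of the series. All mice were C57BL/6 X CAST/Ei crosses, and both ages carry the condition label intact, from a study in which other neurons were taken after sciatic nerve injury. The L4 and L5 ganglia, which send axons into the sciatic nerve, were dissociated with enzymes, and cytoplasmic RNA was amplified by SMART-seq2. The labels give no sex and do not say whether the 3 libraries of an age came from separate animals, so p-values measure only the spread between libraries. A further 12 low-input libraries (intact at 8 months, injured at 1, 8 and 12 months, 3 each) entered the model to estimate the spread. The p-values therefore rest on a spread shared by all 6 groups. The 12-month intact libraries were less alike than the 1-month ones (Spearman correlations 0.655 to 0.875 against 0.908 to 0.947). The shared spread can therefore understate that of the 12-month group.

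DRG neurons carry touch, temperature and pain signals from skin, muscle and viscera to the spinal cord. Their firing is set by voltage-gated sodium, potassium and calcium channels, and their long axons depend on transport along microtubules and on a large supply of ribosomes and mitochondrial energy. Sensory neurons are born before birth and are kept for life, and nerve function declines slowly with age.

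The 6 libraries differed in depth in the same direction as age. A single feature, CT010467.1, took 40.4% to 45.3% of the counts other than spike-ins at 1 month and 64.2%, 93.8% and 80.9% at 12 months (65.7% to 68.2% at 8 months). Autosomal counts were 5482206, 10942073 and 6382479 at 1 month and 4436774, 449354 and 1669347 at 12 months, and 15217 to 17987 against 10392 to 14643 autosomal genes had a count. The groups did not overlap in these measures, in the share of ERCC spike-ins (2% to 10.6% against 15.2% to 22.9%) or in the share of mitochondrial counts among the rest (2.06% to 2.69% against 3% to 40.5%). An exact two-sided permutation test gave p = 0.1 for each of the 5 measures, the smallest that 3 against 3 libraries allow (adjusted p = 0.1). The second 12-month library stood apart: Lars2, a mitochondrial leucyl-tRNA synthetase gene, held 54.1% of its autosomal counts, against 0.408% to 2.07% in the other 5, and 1 count there equalled 4.49 CPM (counts scaled to library size). Its Spearman correlations with the other 12-month libraries over 13642 genes were 0.709 and 0.655, against 0.875 between those 2 and 0.908 to 0.947 among the 1-month libraries. Each count is therefore given with all 18 libraries and without that library. Counts of Uty, Kdm5d, Ddx3y and Eif2s3y, all on the Y chromosome, summed to 160, 725 and 409 counts at 1 month and to 0 in every 12-month library. Xist, the RNA of the inactive X chromosome, had 0 counts at 1 month and 10, 15 and 0 at 12 months. The 8-month intact libraries, given beside many genes below, had 253, 149 and 313 Y-linked counts and 0 Xist counts, as the 1-month libraries did. A gene that differs only at 12 months therefore also follows the absence of Y-linked counts. Age and sex cannot be told apart in these libraries, and only autosomal genes were compared. A fit with the share of CT010467.1 as a covariate is given below. Because that share does not overlap between the ages, this fit cannot tell the share and age apart. The part of depth and of that feature in the differences was not tested.

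**Figure D1:**
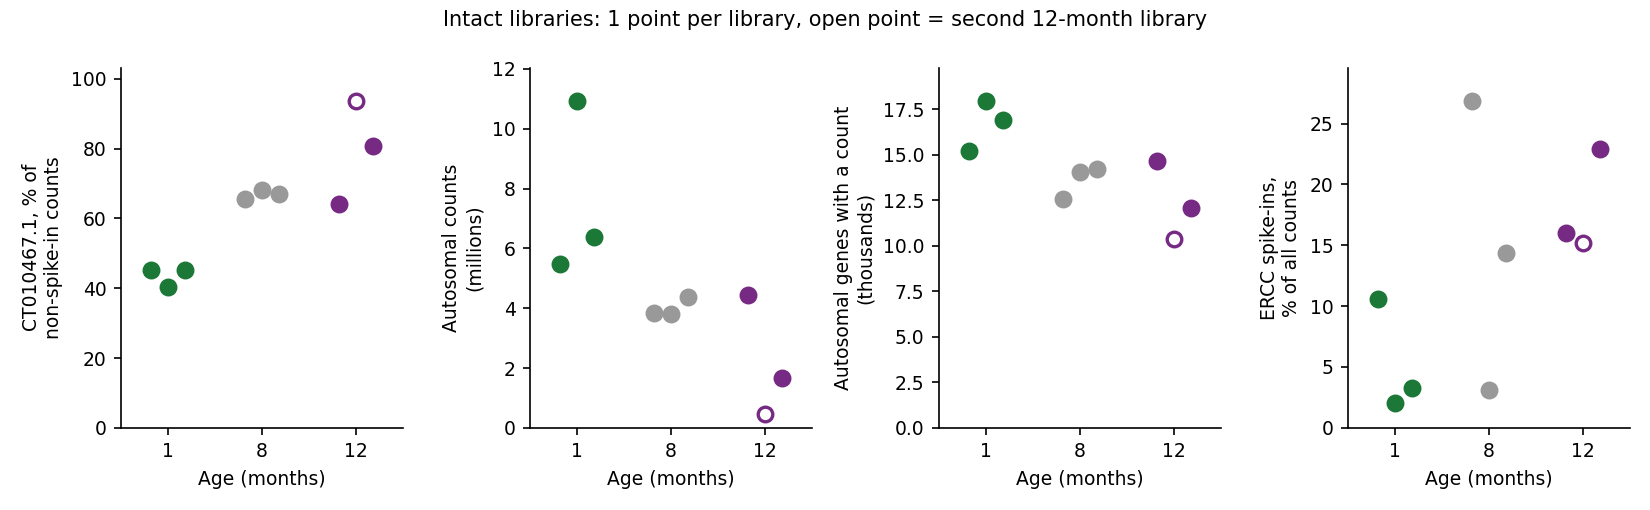
Share of CT010467.1, autosomal counts, autosomal genes with a count and share of spike-ins (y axes) in each intact library at 1, 8 and 12 months (x axis). Each point is 1 library and the open point is the second 12-month library, which has 449354 autosomal counts; all 12-month libraries lie above the 1-month libraries in the first and last panels and below them in the others.

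The libraries held neuronal RNA at both ages. All 12 general neuron markers were tested, and their sum was 15524 to 22869 CPM at 1 month and 11380 to 18639 CPM at 12 months. Uchl1, a ubiquitin hydrolase abundant in neurons, was at 4298, 3815 and 3034 CPM at 1 month and 3716, 3726 and 3539 CPM at 12 months. For none of these 12 markers did edgeR make a call (1 at an unadjusted p below 0.05; 0 calls with DESeq2 or limma-voom). Satellite glia markers summed to 246 to 1524 CPM at 1 month and to 115, 1771 and 236 CPM at 12 months. Schwann cell markers summed to 595 to 856 CPM against 536, 1101 and 966 CPM. Immune markers summed to 3.43 to 14.4 CPM against 14.1, 80.9 and 1.08 CPM, with 11 of 17 at 0 in all 12-month libraries, and vascular and fibroblast markers to 20.6 to 36.6 CPM against 59.4, 256 and 1.08 CPM, with 7 of 15 at 0. In each of these 4 lists the highest 12-month value was that of the second library. In bulk libraries, fewer cells of a type and less RNA per cell cannot be told apart.

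Across 13642 autosomal genes, edgeR's quasi-likelihood test called 30 genes at a Benjamini-Hochberg adjusted p below 0.05. Of these, 17 were higher at 12 months, 0.125% of the genes tested, and 13 were lower, 0.0953%. The median log2 change of all genes was -0.10. Without the second 12-month library, 88 of 14347 genes were called, 33 higher (0.23%) and 55 lower (0.383%), and 27 of the 30 calls were made again in the same direction. Most of the 30 depended on other libraries: 6, 14 and 8 were made again without the first, the second or the third 1-month library, 27 without the first 12-month library and 9 without the third. In all 6 of these fits 4 of the 17 higher calls and 0 of the 13 lower calls were kept. The 4 were Gm10874, Gm15710, Gm6969 and Gm5564, the last of which falls outside the rule for named genes. Values without overlap between the 2 ages were more common than calls: all 12-month libraries lay above all 1-month libraries for 3.23% of genes and below them for 10.1%. Scaling changed the balance of the calls: with RLE size factors 17 were higher and 8 lower, and with spike-in totals 2 were higher and 12249 lower, with a median log2 change of -4.31. Changes are therefore given relative to the other autosomal genes of a library. Under spike-in totals Polr2l, Eno1b, Svip, Tpm3-rs7, Rn7s1 and Rn7s2, described as higher here, had negative log2 changes, as did Rpl41, Rpl13 and Atp5e. When only the 6 intact libraries entered the fit, edgeR made 0 calls, with 448 genes at an unadjusted p below 0.05. With the share of CT010467.1 as a covariate it called 3, all higher, of which 2 were among the 30. limma-voom with quality weights called 14, all higher, of which 11 were among the 30, and DESeq2 called 249, including all 30.

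The genes called higher fell into a set of retrocopies, pseudogenes and predicted loci and a small set of ordinary genes. RefSeq gives a biotype for 15 of the 17, and 8 of these 15 (53.3%) are pseudogenes, against 3.28% of the 13042 tested genes with a biotype. By name, 9 of the 17 are pseudogenes or predicted genes, with a median log2 change of 5.11. Since reads with more than 1 best position were not counted, a gene and its near-identical copies share reads in a way that the table cannot resolve, and the values of all such loci are uncertain.

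Polr2l encodes a small subunit shared by the nuclear RNA polymerases (chromosome 7, 141471860 to 141475132, GRCm38). It was at 52, 46.1 and 52.7 CPM at 1 month and at 104, 117 and 112 CPM at 12 months. The 12-month libraries, the second included, lay above the others and close together, and the 8-month libraries, at 47.6 to 52.8 CPM, lay beside the 1-month ones. The log2 change was 1.13 ± 0.22 (SE; edgeR adjusted p = 0.0428), and the call depended on single libraries. It was kept without the first or the second 12-month library and lost without any 1 of the 1-month libraries or the third 12-month library (adjusted p 0.0262 to 0.212). Svip, an inhibitor of endoplasmic-reticulum-associated protein degradation (chromosome 7, 51997171 to 52006018), was at 29.3, 54.9 and 47.3 CPM and then at 83.1, 247 and 158 CPM, with no overlap. Its log2 change was 1.85 ± 0.37 (edgeR adjusted p = 0.043), and the call was lost without the second library, which had the highest value (log2 change 1.45, adjusted p = 0.0569). The Svip call was also lost without any 1 of the 1-month libraries or the third 12-month library.

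Eno1b, a retrotransposed copy of the glycolytic enolase gene Eno1 (chromosome 18, 48045335 to 48048378), was at 18, 19.9 and 25.5 CPM at 1 month and at 80.5, 40.5 and 87.2 CPM at 12 months. The groups did not overlap, and the log2 change was 1.77 ± 0.28 (edgeR adjusted p = 0.013). Its parent Eno1 was at 981, 890 and 1061 CPM against 774, 103 and 671 CPM, a log2 change of -0.90 ± 0.43 that did not pass (adjusted p = 0.476). At 8 months Eno1b was at 93.1, 108 and 137 CPM.

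Hist1h2al, a histone H2A gene (chromosome 13, 51202727 to 51203065), had no count in any 1-month library, 50 counts over the 12-month libraries (7.61, 22.5 and 5.41 CPM) and 3.6 to 5.25 CPM at 8 months. Against the floor of 3 counts over the 1-month group it was at least 59-fold higher at 12 months (edgeR adjusted p = 0.0136). Gstp2, a glutathione S-transferase next to a close paralog, had 1 count at 1 month and 76 at 12 months, in 2 of 3 libraries: 5, 0 and 28.7 CPM. The ratio was 269 (exact 95% interval 46.9 to 10766, for counting error only; edgeR adjusted p = 0.0428), and the 12-month libraries overlapped the others at 0. Tpm3-rs7, a tropomyosin-related sequence, was at 0.378, 0.44 and 1.01 CPM against 3.7, 4.49 and 10.3 CPM (log2 change 3.35 ± 0.65, adjusted p = 0.0428), and at 10.2 to 21.5 CPM at 8 months.

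Rn7s1 and Rn7s2 are loci of the 7SL RNA of the signal recognition particle, which guides new secretory proteins to the endoplasmic reticulum. Rn7s1 was at 1.51, 1.32 and 2.02 CPM at 1 month and at 21.5, 36 and 10.8 CPM at 12 months. Rn7s2 was at 0.189, 0.791 and 2.02 CPM and then at 19.8, 71.9 and 16.2 CPM. Neither overlapped, with log2 changes of 3.73 ± 0.71 and 5.04 ± 0.98 (edgeR adjusted p = 0.0428 for both), and Rn7s2 lost its call without the second library (4.13, adjusted p = 0.0569). Both loci also lost their calls when any single 1-month library was left out, and Rn7s2 without the third 12-month library. The 8-month libraries, at 1.29 to 3.04 and 1.66 to 3.64 CPM, were below every 12-month library. Both loci belong to a repeated family, so their counts are uncertain.

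Of the 9 calls with pseudogene or predicted names, the largest changes were in Llph-ps1 and Gm10874. Llph-ps1 had 3 counts at 1 month and 40 at 12 months (4.35, 13.5 and 9.2 CPM), a ratio of 47.2 (exact 95% interval 15 to 239). Gm10874 was at 0.189, 0.352 and 0.144 CPM at 1 month, at 16.5, 0 and 22.2 CPM at 12 months and at 21.6 to 34.4 CPM at 8 months (log2 change 5.83 ± 0.75, edgeR adjusted p = 0.00186). The second 12-month library had no count, which allows up to 13.5 CPM. Gm15710 and Gm6969, picked here after their values were seen because they were also called with the covariate, were at 0.378 to 0.721 and 0.567 to 1.49 CPM at 1 month. At 12 months they were at 19.8, 27 and 20 CPM and at 50, 13.5 and 36.8 CPM, and at 8 months at 38.7 to 44 and 44.3 to 87 CPM.

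The 13 genes called lower all had ordinary gene names, all were protein-coding, and in all 13 every 12-month library lay below every 1-month library. Their median log2 change was -3.52 with genes without a count at 12 months set to their bound. For 7 of them the 1-month mean was above 13.5 CPM, the level that 3 counts in the second 12-month library represent; for the other 6 that library could not show a difference at its depth.

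Kcna6 encodes the voltage-gated potassium channel Kv1.6 (chromosome 6, 126708329 to 126740674). It was at 134, 31 and 41.5 CPM at 1 month and at 12.2, 4.49 and 8.66 CPM at 12 months. The groups were apart although the 1-month libraries spread widely, and the 8-month libraries were at 166, 129 and 72.7 CPM. The log2 change was -2.82 ± 0.55 (edgeR adjusted p = 0.0428), and without the second library it was -2.70 (adjusted p = 0.0569), which ended the call. The call was also lost without the first or the third 1-month library or the third 12-month library.

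Adgrg1, an adhesion G protein-coupled receptor (chromosome 8, 94974751 to 95014217), was at 129, 85.7 and 132 CPM and then at 44.2, 18 and 21.7 CPM (log2 change -1.95 ± 0.34, edgeR adjusted p = 0.0227). Slc44a2, a choline transporter-like protein (chromosome 9, 21320698 to 21355028), was at 83.1, 59.4 and 118 CPM and then at 30, 27 and 25.4 CPM (-1.65 ± 0.32, adjusted p = 0.0428). Tm9sf4, a membrane protein of the secretory pathway (chromosome 2, 153161303 to 153210466), was at 77.7, 74.6 and 81.9 CPM and then at 25, 31.5 and 31.9 CPM (-1.43 ± 0.28, adjusted p = 0.0428). In these 3 genes the second 12-month library lay within or near the range of the other 12-month libraries, and the ages did not overlap. In Tm9sf4 the 1-month libraries also lay close together, while those of Adgrg1 and Slc44a2 spread more widely. All 3 calls depended on single libraries. Of the 6 fits that left out 1 intact library, Tm9sf4 kept its call in 1, and Adgrg1 and Slc44a2 in 3 each. At 8 months Adgrg1 was at 138 to 232 CPM, Slc44a2 at 111 to 200 CPM and Tm9sf4 at 40.7 to 80.8 CPM.

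Fbl encodes fibrillarin, the methyltransferase that modifies ribosomal RNA in the nucleolus (chromosome 7, 28169710 to 28179269). It was at 18.9, 25.9 and 23.9 CPM at 1 month and at 6.31, 0 and 4.87 CPM at 12 months (log2 change -2.20 ± 0.43, edgeR adjusted p = 0.0428). Fbxw9, an F-box protein of ubiquitin ligases, was at 20, 11.3 and 23.1 CPM against 0.653, 0 and 2.71 CPM (-3.71 ± 0.59, adjusted p = 0.013). Rpusd2, a pseudouridine synthase family member, was at 12.9, 11.3 and 18.2 CPM against 0.87, 4.49 and 0 CPM (-4.12 ± 0.81, adjusted p = 0.0428). All 3 were detected at 8 months at or above 10.3 CPM in every library. Pomt2, an O-mannosyltransferase of the endoplasmic reticulum, was at 7.37, 13.8 and 15.4 CPM against 1.96, 0 and 0.541 CPM (-3.21 ± 0.60, adjusted p = 0.0388).

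Fscn1 encodes fascin, which bundles actin filaments in growth cones (chromosome 5, 142960343 to 142973185). It was at 17.2, 9.06 and 3.89 CPM at 1 month, had 1 count in all at 12 months, and was at 0, 0 and 0.405 CPM at 8 months. The ratio of 12 to 1 month was 0.016 (exact 95% interval 0.000404 to 0.0902, edgeR adjusted p = 0.0116). Injured libraries held 110 to 178 CPM of Fscn1 at 1 month and 90.1 to 133 CPM at 12 months.

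Gmip, a GTPase-activating protein, had 122 counts at 1 month (9.26, 3.43 and 4.9 CPM) and 0 at 12 months, and was at least 11.5-fold lower (edgeR adjusted p = 0.0359). Zcchc14 (zinc finger protein), Hr (the hairless transcriptional corepressor) and Zfp707 (zinc finger protein) each had 1 count at 12 months, in the first library, against 234, 182 and 169 counts at 1 month. Their ratios were 0.0151 (exact 95% interval 0.000381 to 0.0851), 0.0195 (0.00049 to 0.11) and 0.0209 (0.000527 to 0.118), with edgeR adjusted p of 0.013, 0.0149 and 0.0227. In the 8-month libraries all 4 genes had counts, at 7.46 to 19.9 CPM for Gmip, 6.43 to 32.9 CPM for Zcchc14, 4.45 to 11.8 CPM for Hr and 2.31 to 3.87 CPM for Zfp707.

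**Figure D2:**
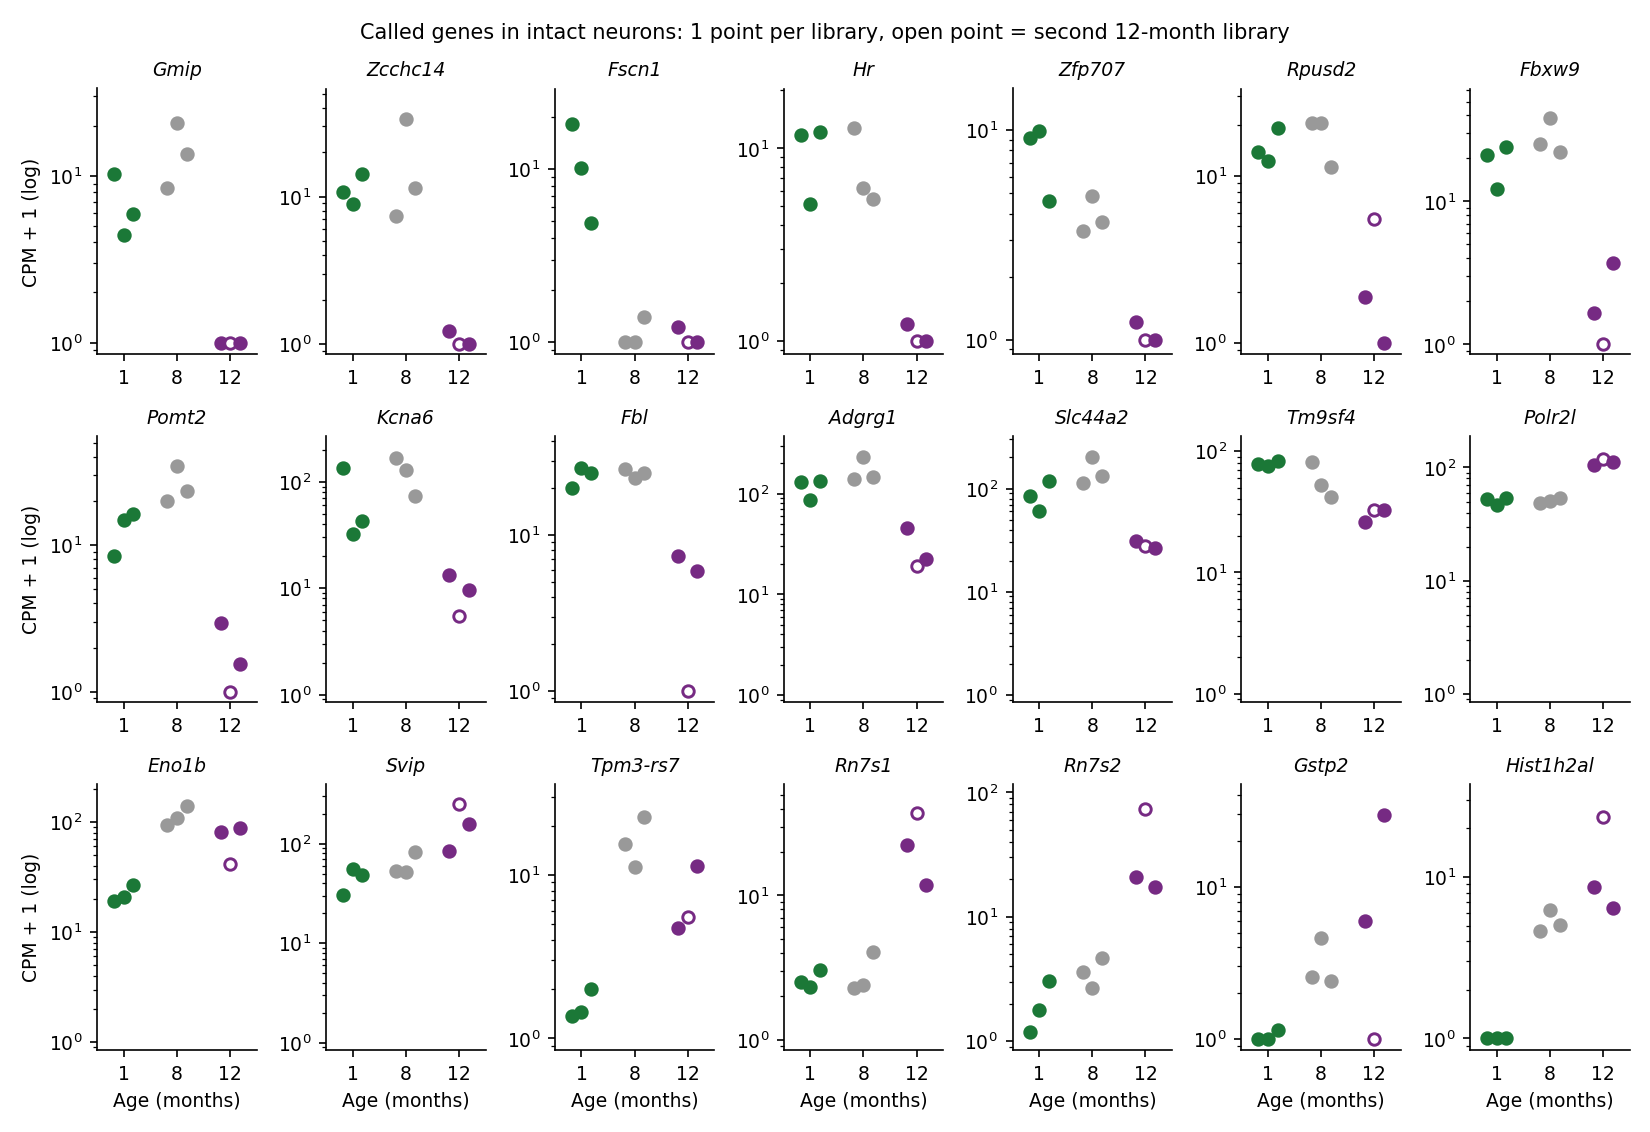
CPM + 1 on a log axis in each intact library at 1, 8 and 12 months (x axis) for the 21 called genes with ordinary names, ordered by log2 change. Each point is 1 library and the open point is the second 12-month library; Polr2l lies at 104 to 117 CPM at 12 months against 46.1 to 52.7 CPM at 1 month, and Gmip is at 0 in all 3 libraries of 12 months.

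Leaving out the second 12-month library brought in further genes. Among higher calls with ordinary gene names, a mean of at least 20 CPM and no overlap, the highest changes were in Nck1, an adaptor of tyrosine kinase signalling, Eno1b, and Scg5, the chaperone of a prohormone convertase. Scg5 was at 86.4, 156 and 136 CPM at 1 month and at 542 and 414 CPM in the first and the third 12-month libraries, and at 504 to 607 CPM at 8 months (log2 change 1.92 ± 0.29, edgeR adjusted p = 0.00869). The second 12-month library had 135 CPM, inside the 1-month range. Nck1 was at 14.7, 34.3 and 17.6 CPM against 75.9 and 104 CPM (2.01, adjusted p = 0.0435), and at 4.49 CPM in the second library.

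Nop10, a small protein of the particles that pseudouridylate RNA, was at 131, 147 and 123 CPM at 1 month and at 389 and 285 CPM in those 2 libraries (1.33 ± 0.24, edgeR adjusted p = 0.0236). It had no count in the second 12-month library, where a count of 0 allows up to 13.5 CPM, far below every other library. Noc3l, a ribosome assembly factor, Trip4, a transcriptional coactivator, Orc4, a subunit of the origin recognition complex, and Ssr3, a subunit of the translocon-associated complex, had log2 changes of 1.81, 1.61, 1.30 and 1.29 (adjusted p 0.0488, 0.0499, 0.0444 and 0.0444). For these 4 the second library lay outside the 1-month range only for Trip4 (71.9 CPM, above) and Noc3l (8.99 CPM, below).

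The lower calls of this fit included large membrane and regulatory proteins. Cacna1b, the pore of the N-type calcium channel that opens at presynaptic terminals (chromosome 2, 24603887 to 24763152), was at 152, 62 and 129 CPM at 1 month and at 27.6 and 15.7 CPM in the first and the third 12-month libraries. The second had 171 CPM, above all of these, and the log2 change was -2.38 ± 0.44 without it (edgeR adjusted p = 0.0262) and -0.91 with it (adjusted p = 0.654). Abca1, a cholesterol export pump, was at 94.5, 78.5 and 88.9 CPM against 21.1 and 21.1 CPM, with 270 CPM in the second library (-2.05 ± 0.31, adjusted p = 0.00928). Nav1, a microtubule-associated guidance protein, was at 356, 128 and 280 CPM against 70.7 and 46 CPM, with 207 CPM in the second library (-2.12 ± 0.40, adjusted p = 0.0267).

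Snhg11, a neuronal noncoding RNA, was at 126, 155 and 149 CPM against 30.9 and 18.4 CPM, with 872 CPM in the second library (log2 change -2.52 ± 0.46, edgeR adjusted p = 0.0226). Slc4a8, a sodium-driven bicarbonate exchanger, was at 49.1, 32.1 and 40.6 CPM against 8.27 and 2.71 CPM, and here the second library was also low, at 13.5 CPM (-2.78 ± 0.59, adjusted p = 0.0444). The other genes of this set were Tnrc18 (-2.90), Chpf2, a chondroitin synthesis factor (-2.24), and the chromatin remodeller Ep400 (-1.96), with adjusted p of 0.0413, 0.0345 and 0.0379. With all 18 libraries the edgeR adjusted p of these 8 genes ran from 0.0693 (Slc4a8) to 0.992 (Abca1), and 4 of them (Slc4a8, Chpf2, Ep400 and Nav1) had an unadjusted p below 0.05. In Slc4a8 and Chpf2 the second library also lay below the 1-month libraries, and in the other 6 it did not.

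Exon length moved with these changes. The genes called lower without the second library had a median summed exon length of 8521 bp, and the genes called higher one of 1109 bp, against 4148 bp over all 14347 genes tested. Among the higher calls, the 17 with pseudogene or predicted names had a median of 480 bp and the 16 with ordinary names one of 2130 bp. In 10 bins of 12571 protein-coding genes by exon length, the median log2 change went from 0.12 in the shortest (median 1363 bp) to -0.51 in the longest (12742 bp), and 19 of the 50 protein-coding genes called lower were in the longest bin. With all 18 libraries the same bins ran from -0.07 to -0.15. The Spearman correlation of length with log2 change across genes, which are not independent, was -0.188 without the second library and -0.0337 with it. In injured neurons, where 12-month libraries were as deep as 1-month ones (5055249 to 6444072 against 4275785 to 6152538 autosomal counts), it was 0.135.

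The second library alone went the other way. Protein-coding genes other than Lars2 were split by exon length into 10 equal bins. The longest bin held 12.2%, 11.6% and 12.3% of their counts at 1 month and 9.73%, 20.2% and 7.61% at 12 months, and the shortest bin held 14.9%, 14% and 12.7% against 15.7%, 8.53% and 16.5%. In the 8-month libraries, where CT010467.1 held 65.7% to 68.2% of the counts against 64.2% in the first 12-month library, the longest bin held 11.8% to 12.9% and the shortest 9.84% to 11.4%. The part of depth in these shares was not tested.

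**Figure D3:**
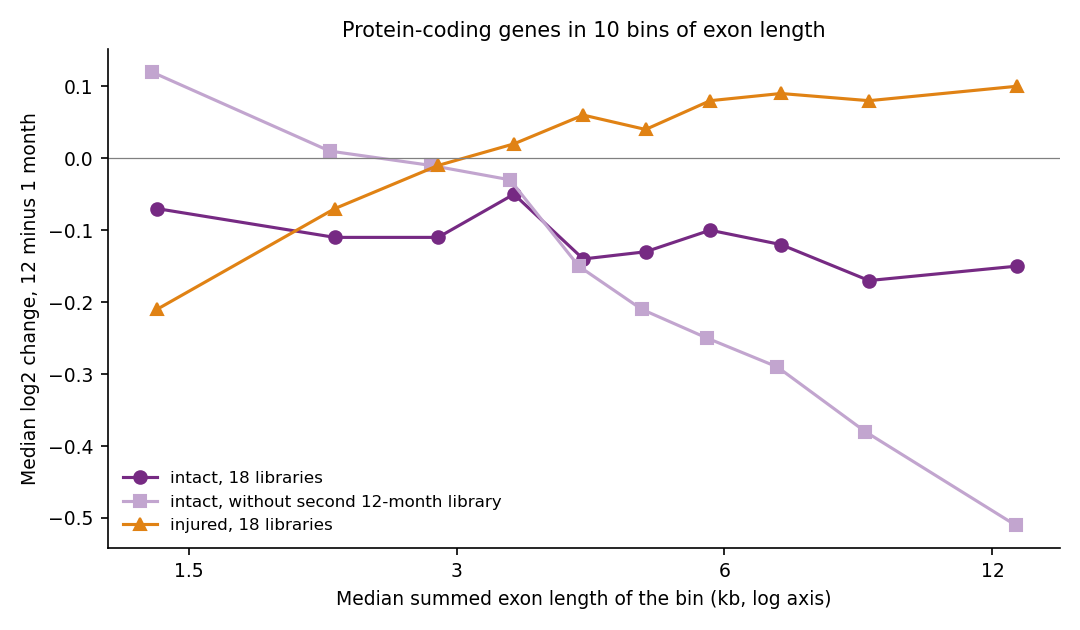
Median log2 change from 1 to 12 months (y axis) of protein-coding genes in 10 bins of summed exon length (x axis, kb, log axis), in intact neurons with all 18 libraries, in intact neurons without the second 12-month library, and in injured neurons. Without that library the medians go from 0.12 to -0.51 with length, while in injured neurons they go from -0.21 to 0.10.

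Function lists differed in the sign of their medians. List medians are given with genes without a count in 1 age at their bound, and the median over all genes was -0.08 on this scale in both fits. The counts for each list stand beside these for all genes. Of 13642 genes, 5991 were above 0 and 7651 below, with 455 higher and 1001 lower at an unadjusted p below 0.05. Without the second library, 6139 of 14347 were above 0 and 8055 below, with 776 higher and 1497 lower at that p. For the 75 tested genes of cytosolic ribosomal proteins, the protein part of the translation machinery, the median log2 change was 0.25, and 0.46 without the second library. In that second fit 68 of 75 were above 0, 51 lay wholly above the 1-month libraries (12.6% of all genes did) and 2 wholly below, and edgeR called 0 (30 at an unadjusted p below 0.05, all higher; DESeq2 called 8 higher and limma-voom 0). Rpl41, Rpl13 and Rpsa, the members with the lowest p in the fit to all libraries, had log2 changes of 0.70, 0.61 and 1.05 (adjusted p 0.296, 0.392 and 0.367). Rpsa was at 219, 208 and 168 CPM against 191, 850 and 216 CPM, so that its change rested on the second library, and without it the log2 change was 0.04. The ribosomal protein list summed to 9831 to 11807 CPM at 1 month and to 13824, 6976 and 15065 CPM at 12 months. At 8 months it summed to 6480 to 8700 CPM, below every 1-month library. In injured neurons its median change from 1 to 12 months was -0.22 with all 18 libraries.

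Nuclear genes of oxidative phosphorylation, the mitochondrial respiratory chain, had a median of 0.04 over 73 tested, and of 0.39 without the second library, with 66 of 73 above 0. edgeR called 0 of them in that fit (14 at an unadjusted p below 0.05, all higher; DESeq2 2 and limma-voom 0). Atp5e, a small subunit of ATP synthase, was at 157, 130 and 107 CPM at 1 month and at 208, 580 and 161 CPM at 12 months (log2 change 1.24 ± 0.39, adjusted p = 0.253). Without the second library its log2 change was 0.49, and with the covariate -0.23. The oxidative phosphorylation list summed to 22237 to 28780 CPM at 1 month and to 37567, 11205 and 27250 CPM at 12 months. At 8 months that list summed to 12241 to 18957 CPM, and in injured neurons its median change was -0.37 with all 18 libraries. Proteasome subunits had a median of 0, and of 0.25 without the second library, with 0 of 37 called by edgeR (7 at an unadjusted p below 0.05, all higher; DESeq2 1 and limma-voom 0).

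Voltage-gated channel lists had negative medians. Among 37 tested potassium channel genes the median was -0.51, with 28 below 0 and 1 called, Kcna6; without the second library it was -0.85, with 30 below 0 and 0 called by edgeR (6 at an unadjusted p below 0.05, all lower; DESeq2 4 and limma-voom 0). Kcnc4, a fast-repolarising Kv3 channel, was at 133, 40.4 and 167 CPM at 1 month and at 29.6, 4.49 and 0.541 CPM at 12 months (log2 change -3.01 ± 0.79, edgeR adjusted p = 0.17). Kcnj3, a G protein-gated inward rectifier, had the opposite sign, at 5.48, 21.1 and 12.3 CPM against 37.2, 76.4 and 65.5 CPM (2.15 ± 0.88, adjusted p = 0.396). Neither overlapped between the ages, and neither passed.

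Sodium channels had a median of -0.76 over 12 tested, and of -1.25 without the second library, where 7 of 12 lay wholly below the 1-month libraries (19% of all genes did). In that fit the covariate turned the median relative to all genes from -1.12 to 0.31. edgeR called 0 in that fit (4 at an unadjusted p below 0.05, all lower; DESeq2 2 and limma-voom 0). Scn10a, the Nav1.8 channel of nociceptors (chromosome 9), was at 1511, 584 and 1119 CPM at 1 month and at 242, 98.9 and 62.8 CPM at 12 months. All 12-month libraries lay below all 1-month libraries, and the log2 change of -2.97 ± 0.64 stayed short of the threshold (edgeR adjusted p = 0.0693; 0.11 without the second library). Calcium channels had a median of -0.84 over 13 tested and of -1.90 over 14 without the second library, with Cacna1b called. Cacna1c, an L-type pore subunit, was at 24, 20.3 and 53.8 CPM against 10.7, 4.49 and 0.541 CPM (-2.44 ± 0.69, adjusted p = 0.195). In injured neurons the medians of potassium, sodium and calcium channels were -0.26, 0.30 and 0.07 with all 18 libraries. Sodium channels summed to 2728 to 4680 CPM at 1 month and to 1998, 3002 and 1081 CPM at 12 months. At 8 months they summed to 3911 to 6752 CPM. The part of exon length in the medians of the function lists was not tested.

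Peptidergic nociceptor markers, 9 of 10 below 0, had a median of -2.11, and edgeR called 0 of them (1 at an unadjusted p below 0.05; DESeq2 and limma-voom 0). Relative to all genes their median was -2.01, and 0.14 with the share of CT010467.1 as a covariate, which turned its direction. Without the second library the median was -2.38, with 9 of 10 below 0 and 0 called by edgeR (DESeq2 1 lower and limma-voom 0). In that fit the median relative to all genes stayed negative in every alternative, from -5.76 to -0.23. Calca, the precursor of calcitonin gene-related peptide, was at 5645, 1861 and 997 CPM against 1108, 360 and 856 CPM, and the ages overlapped. Non-peptidergic nociceptor markers had a median of 0.23 over 10 tested, which changed sign relative to all genes with the covariate (-1.65), with 0 called by edgeR (0 at an unadjusted p below 0.05; DESeq2 and limma-voom 0). Mrgprd, a receptor of these nociceptors, ranged from 0 to 528 CPM within the 1-month libraries and from 0 to 388 CPM within the 12-month ones.

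In cholesterol and fatty acid synthesis the median was -0.44 over 27 tested and -0.47 without the second library. Among 17 tested DNA methylation enzymes and readers the median was -0.38. Tet2, which oxidises methylcytosine, was called only without the second library (3.4, 5.72 and 8.07 CPM against 0.218 and 0 CPM; adjusted p = 0.0444), and the second library had 22.5 CPM. Dnmt3a, the de novo methyltransferase, was at 10.4, 13.2 and 17.6 CPM against 1.09, 8.99 and 8.66 CPM (-1.40 ± 0.59, adjusted p = 0.409). Axonal transport genes had a median of -0.29, and of -0.62 without the second library, with 0 of 20 called by edgeR (10 at an unadjusted p below 0.05, all lower; DESeq2 3 and limma-voom 0).

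Among the remaining lists, neurotrophin and cytokine receptors had a median of -0.91 (-1.03 without the second library), heat shock proteins one of 0.04 (0.26) and antioxidant enzymes one of 0 (0.35). Tapbp, the chaperone that loads peptides on MHC class I, was the member of the interferon and MHC list that was called, and only without the second library (log2 change -1.21, edgeR adjusted p = 0.0444).

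**Figure D4:**
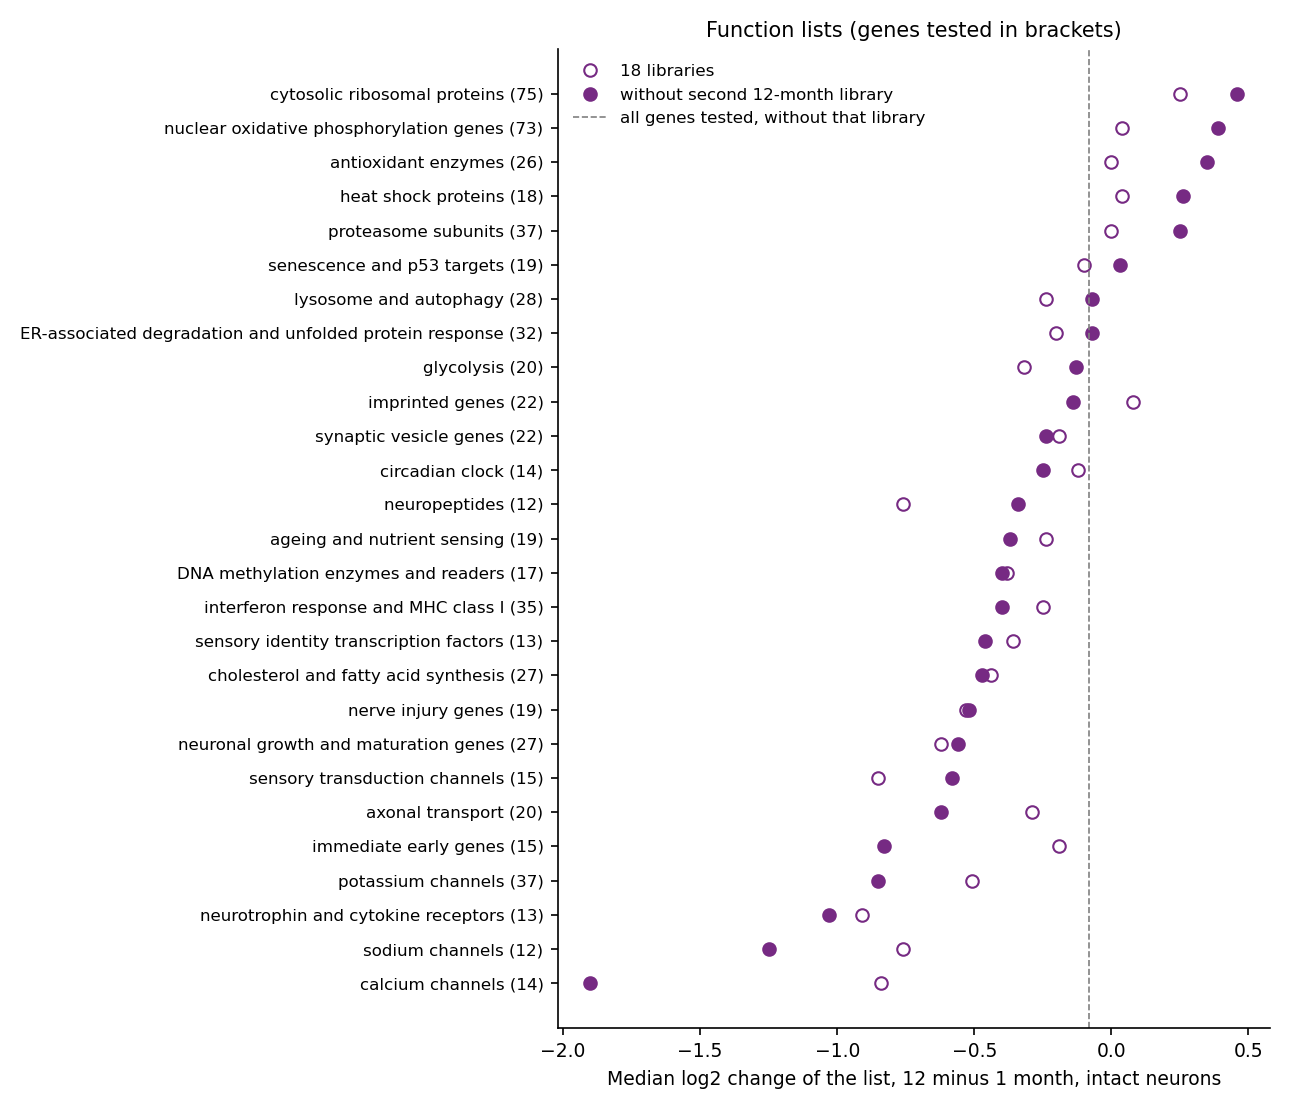
Median log2 change from 1 to 12 months in intact neurons (x axis) for the function lists with at least 10 genes tested (y axis, genes tested in brackets), with genes without a count in 1 age at their bound. Open points use all 18 libraries and filled points leave out the second 12-month library; cytosolic ribosomal proteins are highest (0.25 and 0.46) and calcium channels lowest in the filled points (-1.90), with all genes at -0.08.

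The same age difference was measured in injured neurons, in 6 other libraries. The labels do not say whether intact and injured libraries of an age came from the same animals, so the 2 comparisons may not be independent. The injured libraries share the ages and the Y-linked and Xist pattern of the intact ones (0 Y-linked counts and 34 to 226 Xist counts at 12 months). Of the 17 genes higher in intact neurons, 9 were also called in injured neurons, where 0.0953% of all genes were called, and 14 had the same sign. Eno1b was at 25.5, 26.9 and 26 CPM in injured neurons at 1 month and at 99.1, 132 and 130 CPM at 12 months, a log2 change of 2.20 ± 0.28 (edgeR adjusted p = 0.00169). Hist1h2al had 0 CPM in all injured libraries of 1 month and 3.17 to 8.84 CPM at 12 months (adjusted p = 0.0369). Rn7s1 and Rn7s2 were not higher in injured neurons, at -1.23 ± 0.67 and -0.60 ± 0.87 (adjusted p = 1 for both).

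None of the 13 genes lower in intact neurons was called in injured neurons by edgeR (0 at an unadjusted p below 0.05), where their log2 changes ran from -0.80 to 0.58 with a median of -0.10. Kcna6 was at 42, 42.9 and 65.4 CPM in injured neurons at 1 month and at 61.4, 39.2 and 66.4 CPM at 12 months. The difference between the 2 age contrasts was tested as an interaction. With all 18 libraries edgeR made 0 calls among 13642 genes (0%), of which 799 had an unadjusted p below 0.05 (DESeq2 called 35 and limma-voom 2). For Kcna6 it was 2.97 ± 0.72 (adjusted p = 0.435), for Adgrg1 2.23 ± 0.46 and for Fscn1 5.48 ± 1.04 (adjusted p = 0.2 for both). All 13 lower genes had an unadjusted p below 0.05 in edgeR's interaction test. These genes were picked by their change in intact neurons, which is part of the interaction. Their interaction values are therefore not separate evidence of a difference from injured neurons.

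Without the second 12-month library, 4 of 14347 genes passed the interaction test (0.0279%). Abca1 was at 407, 177 and 288 CPM in injured neurons at 1 month and at 602, 632 and 442 CPM at 12 months, and its interaction was 2.98 ± 0.40 on the log2 scale (edgeR adjusted p = 0.0213). Snhg11, at 161, 69.5 and 107 CPM against 474, 221 and 204 CPM in injured neurons, had an interaction of 3.92 ± 0.59 (adjusted p = 0.0213). The other 2, Zfp236 and Gm23935, fell outside the rule for named genes and were picked after their values were seen. Zfp236, a zinc finger protein, was at 16.1, 13.5 and 10.7 CPM in intact neurons at 1 month and at 0.435 and 0.541 CPM in the first and the third 12-month libraries, with 27 CPM in the second. Gm23935, a predicted noncoding locus, was at 163, 153 and 245 CPM against 653 and 620 CPM, with 24824 CPM in the second.

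**Figure D5:**
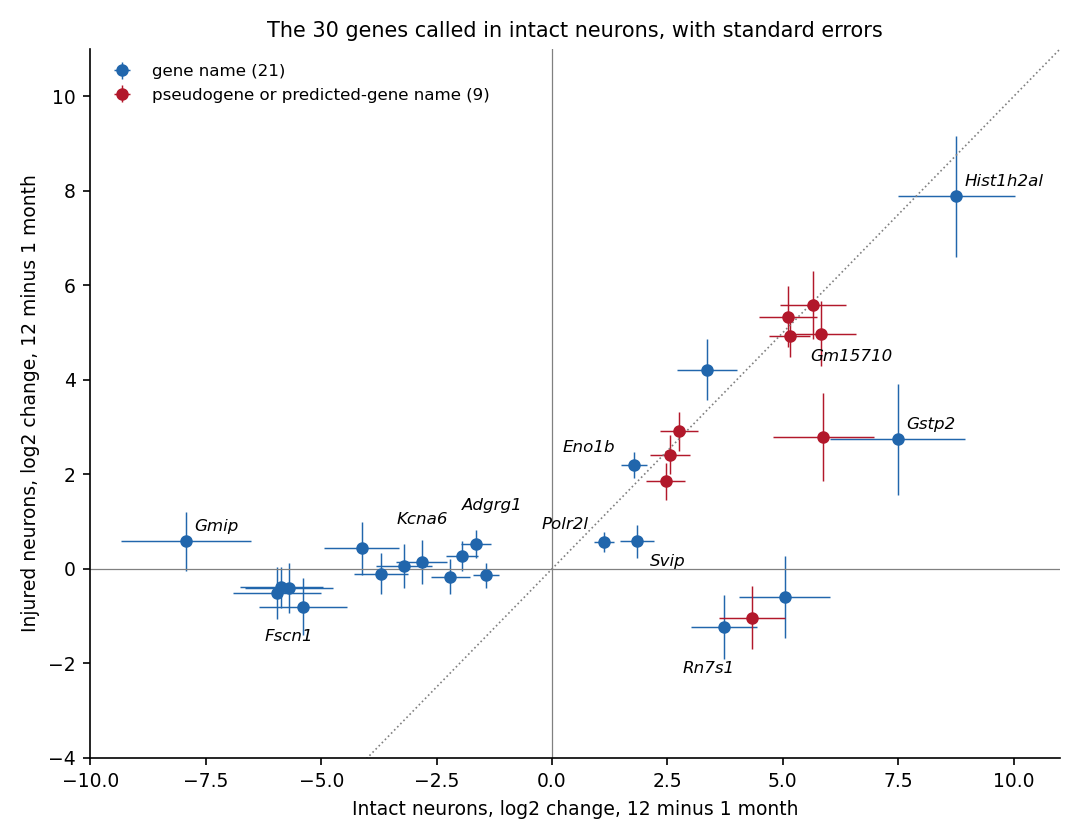
Log2 change from 1 to 12 months in intact neurons (x axis) and injured neurons (y axis) for the 30 genes called in intact neurons, with standard errors; blue points have ordinary gene names and red points pseudogene or predicted names. The 13 lower genes lie between -0.80 and 0.58 in injured neurons, and 14 of the 17 higher genes lie above 0 there; the dotted line marks equal changes, and values near or beyond 8 belong to genes without a count at 1 age, whose fitted change depends on the prior count.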

How the data were processed

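The authors deposited raw fragment counts per gene. Per the file headers, featureCounts 1.5.2 counted read pairs over exons by gene name, without strand, with GENCODE M16 (GRCm38); Trim Galore and STAR are named in the submitters' processing notes (mm10). Without strand, overlapping and antisense genes cannot be told apart. Summed exon lengths come from the same table, biotypes from RefSeq. ERCC spike-ins and CT010467.1 were removed before scaling, autosomal genes were filtered with filterByExpr, and edgeR 4.0.16 (TMM, quasi-likelihood, two-sided, Benjamini-Hochberg over all genes tested) fitted 1 mean for each of 6 groups of 18 low-input libraries (common coefficient of biological variation 0.543, residual degrees of freedom 12) or 17 without the second 12-month library (0.524 and 11). CPM use the TMM-scaled autosomal total of the 18-library fit. In simulated counts for this comparison (13270 genes, 18 libraries), the test recovered 2 of 50 genes changed 2-fold, 21 of 50 changed 4-fold and 38 of 50 changed 16-fold, with 1 false call. The simulation gave each gene the same spread in all libraries and drew the changed genes from those above a minimum mean. It left out the larger spread of the real 12-month libraries, so these rates need not hold for the real data. limma 3.58.1 and DESeq2 1.42.0 were alternatives. Named genes were all called genes with ordinary names, the 2 largest calls with pseudogene or predicted names in each direction, the 8 largest changes in each direction at 20 CPM or more without overlap in the 17-library fit, and, in lists, called members and up to 3 of lowest p. The members and the 39 gene lists were chosen with earlier results of these data known. Intervals and floors (3 counts) cover counting error only. Of the deposited table, 69 columns of other samples were not used. Some single-gene results are not reported here.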

Additional observations from a re-analysis of the deposited data

Results flagged for a closer look

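Without the second 12-month library, the change from 1 to 12 months differed between injured and intact neurons for 4 genes by edgeR's interaction test: by 3.92 on the log2 scale for Snhg11, 2.98 for Abca1, 4.71 for Zfp236 and -3.31 for Gm23935 (injured minus intact, adjusted p 0.0213 for each). With all 18 libraries none of the 4 passed. The second 12-month library held 872 CPM of Snhg11 and 270 CPM of Abca1, above every 1-month intact library. The cause was not tested.

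Xist, left out of the comparison with the other sex-linked genes, had 25 counts over the 3 intact libraries of 12 months and none over those of 1 month. It appeared together with the absence of Y-linked counts, so age and sex cannot be told apart.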

How the results depend on the processing

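With all 18 libraries 30 genes were called between the ages, and without the second 12-month library 88. RLE scaling, a minimum of 1 CPM in 3 libraries, all chromosomes kept, and removal of features above 1% of a library gave 25, 28, 35 and 31 calls (85, 75, 101 and 85 without that library). Counts moved further with spike-in scaling (12251 and 10240), DESeq2 (249 and 707), limma-voom (14 and 14), no filter on low counts (267 and 636), only the intact 12- and 1-month libraries (0 and 0) and the share of CT010467.1 as a covariate (3 and 3). Leaving out 1 library at a time gave 6 (without the first 1-month library) to 193 (without the first 12-month library) calls, with 16 and 9 without the second and the third 1-month libraries and 11 without the third 12-month library. From the 88, it gave 17 (without the third 12-month library) to 803 (without the first 12-month library), with 32 and 23 without the first and the third 1-month libraries. Leaving out a further 12-month library leaves 1, whose spread is then assumed to be that of the other groups. The interaction with injury had 0 calls with all libraries, 68 with spike-in scaling, 35 with DESeq2, 2 with limma-voom, 110 without a filter, and 0 to 44 when 1 library was left out (44 without the first 12-month library, 4 without the second or the third, 2 without the third 1-month library). The causes were not tested.

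The replicate block gave 19 calls in place of 30, 43 in place of 88 and 0 for the interaction. Deviations of same-numbered libraries correlated at -0.163, -0.316 and 0.132 over 4870 genes, and those of different-numbered libraries at -0.254 to 0.349. With 3 libraries of each age these values cannot decide whether same-numbered libraries share a batch. The second and the third intact libraries of both ages have a repeat deposit under the same library name, and the first ones do not.

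Of 1317 values of single genes under alternatives, 931 kept their direction and side of the threshold, 303 lost the call, 50 gained one and 33 changed sign. Spike-in scaling, under which the median of all genes was -4.31 (-3.81 without the second 12-month library), turned 24: Atp5e -3.50, Calr -3.67, Eno1b -2.36, Kcnj3 -2.80, Mbd1 -3.91, Ndufa2 -3.76, Polr2l -3.14, Rn7s1 -0.62, Rn7s2 -0.05, Rpl13 -3.46, Rpl41 -3.48, Rpsa -4.07, Rsad2 -0.40, Svip -3.14, Tpm3-rs7 -1.07 and Uqcrq -3.53, and in the fit without that library Gm23935 -1.93, Nck1 -2.10, Noc3l -1.81, Nop10 -2.34, Orc4 -2.48, Scg5 -1.91, Ssr3 -2.74 and Trip4 -2.51. The covariate turned Atp5e (-0.23), Eno1 (0.60), Gpi1 (0.65), Klc1 (0.03), Ndufa2 (-0.05), Rpsa (-1.06), Rsad2 (-1.51) and Scn7a (0.04). With 1 library left out, Rsad2 ran from -2.71 (without the third 12-month library) to 5.10 (without the third 1-month library). Relative to all genes, the medians of ribosomal proteins (positive) and of potassium and calcium channels (negative) kept their sign in every alternative run in both fits, and that of sodium channels only with all 18 libraries. Among lists described, leaving out 1 of all 18 libraries turned the medians of several. Oxidative phosphorylation turned without the first 12-month library (-0.17) and proteasome subunits without the third 1-month library (-0.03). Axonal transport and DNA methylation enzymes turned without the third 12-month library (0.03 and 0.26). Antioxidant enzymes turned without the first or the third 12-month library (-0.08 and -0.03). Non-peptidergic markers turned without the first 1-month library (-0.05), the first 12-month library (-0.12) or the third 12-month library (-0.77). From 17 libraries, cholesterol synthesis turned without the first 12-month library (0.19) and non-peptidergic markers without the third 12-month library (-0.24). The depth of the second 12-month library, where 3 counts are 13.5 CPM, limits all genes below that level.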
